A study of Mus musculus with 8 samples.

Results

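The genes described here are 10 that encode feedback regulators of the ERK mitogen-activated protein kinase pathway: the dual-specificity phosphatases Dusp1, Dusp2, Dusp4, Dusp5, Dusp6 and Dusp10, the adaptor-type inhibitors Spry1, Spry2 and Spred1, and the upstream kinase Map3k8. They were chosen by name. Each was read from the probe annotated with one of its RefSeq transcripts that had the highest mean signal over all arrays, and they make up 10 of the 19752 genes that could be named on the array. All 10 passed the filter on dim probes, all of them on every one of the 8 arrays, so that none was kept because of a single group, and 15138 genes were tested with them.

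The measurements come from 8 Agilent arrays, each read in a single colour (Cy3) and each holding labelled RNA of 1 sample of mouse splenic T cells. The 4 groups of 2 arrays each were Lsp1-deficient (Lsp1-/-, KO) cells after 6 h with antibodies to CD3 and CD28, wild-type (WT, Lsp1+/+) cells after the same 6 h, KO cells in medium and WT cells in medium. All mice carried the C57BL/6 background. The KO strain had been backcrossed to generation N10, the WT mice were matched for age and sex, and the age given is 8 to 12 weeks. Lsp1 encodes leukocyte-specific protein 1, a protein of haematopoietic cells that binds the actin cytoskeleton. Every RNA integrity number was above 9.5. The labels do not give the time in medium, how T cells were taken from the spleen or whether both arrays of a group stand for separate mice. P-values therefore measure only how far these samples differ, and that spread may be technical.

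As background, engagement of the T cell receptor together with CD28 activates Ras, and Ras starts the kinase cascade Raf, MEK and ERK, which phosphorylates transcription factors in the nucleus. ERK also induces genes that limit it: dual-specificity phosphatases remove the phosphates from the activation loop of ERK, JNK or p38, each with its own preference and location in the cell, while Sprouty and Spred proteins act higher up, at the level of Ras and Raf. Map3k8, also called Tpl2 or Cot, enters the cascade from the side, as a kinase that activates MEK once it is released from the NF-kappaB precursor p105.

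Values are log2 of the background-subtracted signal of a probe minus log2 of the 75th percentile of signal on the same array, so that 0 is a signal equal to that percentile. A fold change or difference is always between groups for 1 probe, since probes of different genes cannot be set against each other. In whole samples of this kind, fewer cells of a type and less RNA per cell cannot be told apart. Tests were made with limma over all genes, and a gene is called at a Benjamini-Hochberg adjusted p below 0.05.

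The scaling value, the 75th percentile of signal, was 1200 to 1469 over the 8 arrays, and 58.4% to 69.2% of probes were well above background. Lsp1 itself was 3.35 ± 0.13 lower on the log2 scale in KO cells than in WT cells after stimulation (SE, adjusted p = 0.00268) and 3.79 ± 0.13 lower in medium (adjusted p = 0.00127), with 2 arrays a group. It still gave a signal of 16045 to 18179 on the KO arrays, against 159921 to 238833 on the WT arrays, and where its probe lies relative to the deleted part is not stated in the labels or files. All 14 T cell markers listed for these samples (such as Cd3e, Lck and Cd4) were well above background on all 8 arrays, with a median value between 4.69 and 5.55. The second KO array of both conditions stood apart. Its T cell marker median was the lowest of its condition, 4.69 against 5.01 to 5.05 on the other 3 arrays after stimulation and 5.10 against 5.48 to 5.55 in medium. The median of 15 neutrophil markers was 2.21 on the second and -1.56 on the first KO stimulated array, against -1.72 and -1.29 on the WT stimulated arrays. In medium it was 3.42 on the second and -0.71 on the first KO array, against -0.86 and -0.69 on the WT arrays. The summed level of the neutrophil list, in multiples of the 75th percentile, spanned 152 to 442 in KO stimulated cells, 144 to 147 in WT stimulated cells, 192 to 771 in KO medium and 172 to 256 in WT medium. Between 9 and 14 of the 15 markers were well above background on the KO stimulated arrays, 10 or 11 on the WT stimulated arrays, 12 to 15 in KO medium and 13 to 15 in WT medium. Erythroid and platelet markers moved the same way, with medians of 1.68 and 0.90 on the second KO arrays after stimulation and in medium, and of at most -0.44 on the other 6. Monocyte and macrophage markers did too, with 0.39 and 0.22 against at most -1.75. Their part in the results was not tested. The KO responses of the 10 genes, and some of the genotype differences, are given with and without the second KO arrays. Without them each KO group holds 1 array, so only the size of the difference is given. The values of the other gene lists are from all arrays except where stated.

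**Figure D1:**
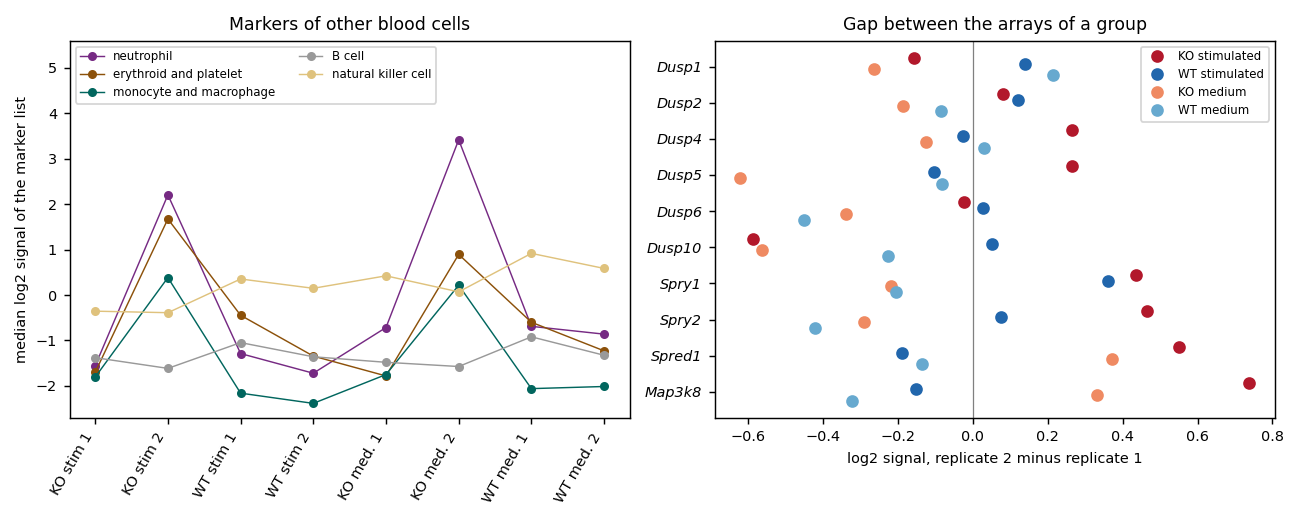
Left, the median log2 signal of 5 marker lists (vertical axis, relative to the 75th percentile of the array) on each of the 8 arrays: neutrophil markers reach 2.21 and 3.42 on the second KO arrays, and lie at -0.69 or lower on the other 6. Right, for each ERK feedback gene, log2 signal of replicate 2 minus replicate 1 in the 4 groups: the points furthest from 0 belong to KO groups, at 0.74 for Map3k8 after stimulation and -0.62 for Dusp5 in medium.

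After stimulation 7 of the 10 genes rose in KO cells, Map3k8, Spry1, Spred1, Dusp10, Dusp4, Dusp5 and Dusp6, where 5.85% of all genes tested were called higher. In WT cells 5 of the 10 rose, Map3k8, Spry1, Spred1, Dusp10 and Dusp4, against 6.42% of all genes. The 5 called in WT cells were also called in KO cells, and 4.86% of all genes were called higher in both. No member was called lower in either genotype, beside 2.27% of all genes in KO cells and 3.84% in WT cells. The median log2 fold change of the 10 was 1.05 in KO cells and 0.71 in WT cells, beside -0.08 and -0.09 over all genes tested.

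Map3k8 read 0.72 and 1.46 on the KO stimulated arrays and 1.21 and 1.05 on the WT stimulated arrays, against -1.22 and -0.89 in KO medium and -0.61 and -0.94 in WT medium. All 4 stimulated arrays lay above all 4 medium arrays by more than a unit, and the widest gap between arrays of a group, 0.74, was between the KO stimulated arrays. This was the strongest response of the set in both genotypes, 2.15 ± 0.27 in KO cells (4.44-fold, adjusted p = 0.00953) and 1.90 ± 0.27 in WT cells (3.74-fold, adjusted p = 0.0136; log2 fold change ± SE, 2 arrays a group here and below). Without the second KO arrays, with 1 array left in each KO group, the KO response was 1.95.

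Spry1 encodes a Sprouty protein, an adaptor that restrains signalling from receptors to Ras and ERK. It read 1.41 and 1.84 on the KO stimulated arrays and 1.24 and 1.60 on the WT stimulated arrays, against -0.12 and -0.34 in KO medium and -0.11 and -0.32 in WT medium. In medium the genotypes lay on top of each other, and after stimulation they overlapped again, at a higher level. Spry1 rose by 1.86 ± 0.21 in KO cells (3.63-fold, adjusted p = 0.00676) and by 1.63 ± 0.21 in WT cells (3.10-fold, adjusted p = 0.0101). In KO cells it was 1.53 without the second arrays.

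Spred1 encodes a relative of the Sprouty proteins that binds neurofibromin, the Ras inactivator, and brings it to the plasma membrane. It read -1.13 and -0.58 on the KO stimulated arrays and -1.12 and -1.31 on the WT stimulated arrays, against -2.73 and -2.35 in KO medium and -2.67 and -2.81 in WT medium. The second KO array was the highest of its condition both times. The rise was 1.68 ± 0.22 in KO cells (3.21-fold, adjusted p = 0.0107) and 1.53 ± 0.22 in WT cells (2.88-fold, adjusted p = 0.0146). In KO cells it was 1.59 without the second arrays.

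Spry2, the other Sprouty gene of the set, was dim. Its signal was 30.5 to 74.7 on the linear scale, where the lowest signal called well above background on any array was 14.6 and on the array with the highest such limit 26.3. It read -5.53 and -5.07 on the KO stimulated arrays and -5.09 and -5.02 on the WT stimulated arrays, against -4.92 and -5.21 in KO medium and -4.16 and -4.59 in WT medium. The WT medium arrays were the highest, the other 6 overlapped, and it did not pass the test in either genotype. The difference was -0.24 in KO cells (95% interval -0.77 to 0.30, adjusted p = 0.557) and -0.68 in WT cells (-1.22 to -0.14, adjusted p = 0.105). Without the second KO arrays the KO difference was -0.61. Together with Dusp1, Spry2 made 2 members whose WT stimulated arrays both lay below both WT medium arrays, where 42.1% of all genes did so.

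Dusp10 encodes MKP-5, a phosphatase that prefers JNK and p38 over ERK. It read 2.92 and 2.33 on the KO stimulated arrays and 2.98 and 3.03 on the WT stimulated arrays, against 1.63 and 1.07 in KO medium and 1.67 and 1.45 in WT medium. The second KO array was the lowest of its condition both times, by 0.59 after stimulation and 0.56 in medium relative to the first. Dusp10 rose by 1.28 ± 0.26 in KO cells (2.42-fold, adjusted p = 0.0388) and by 1.44 ± 0.26 in WT cells (2.72-fold, adjusted p = 0.0261), and of the 7 genes called in KO cells it was the 1 whose WT value was larger (KO minus WT response -0.17, 95% interval -1.07 to 0.73). Left without the second arrays, the KO response was 1.29.

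Dusp4 encodes MKP-2, an inducible nuclear phosphatase. Its values were 0.64 and 0.91 on the KO stimulated arrays and 0.68 and 0.65 on the WT stimulated arrays, against -0.21 and -0.34 in KO medium and -0.09 and -0.06 in WT medium. Arrays of a WT group differed by no more than 0.03, and both KO medium arrays lay below both WT medium arrays. The gene rose by 1.05 ± 0.13 in KO cells (2.07-fold, adjusted p = 0.00853) and by 0.74 ± 0.13 in WT cells (1.67-fold, adjusted p = 0.0233). In KO cells the value without the second arrays was 0.86.

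Dusp5 and Dusp6 encode phosphatases that are selective for ERK, Dusp5 in the nucleus and Dusp6 in the cytoplasm. Dusp5 read -1.45 and -1.19 on the KO stimulated arrays and -1.25 and -1.36 on the WT stimulated arrays, against -2.06 and -2.68 in KO medium and -1.96 and -2.04 in WT medium. The second KO medium array was the lowest of all 8, by 0.62 below the first. Dusp5 rose by 1.05 ± 0.22 in KO cells (2.07-fold, adjusted p = 0.0409), and the WT difference of 0.69 ± 0.22 was not called (adjusted p = 0.100). Without the second KO arrays the KO difference was 0.61, below the WT difference of 0.69.

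Dusp6 read 2.40 and 2.38 on the KO stimulated arrays and 2.37 and 2.39 on the WT stimulated arrays, against 1.69 and 1.35 in KO medium and 2.19 and 1.74 in WT medium. The 4 stimulated arrays lay within 0.04 of each other, while the medium arrays spread over 0.84, with both KO arrays lowest. Dusp6 rose by 0.87 ± 0.19 in KO cells (1.83-fold, adjusted p = 0.0453), and the WT difference of 0.41 ± 0.19 was not called (95% interval -0.05 to 0.87, adjusted p = 0.204). The KO difference without the second arrays was 0.71.

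Dusp1 and Dusp2 encode inducible nuclear phosphatases, Dusp1 acting on p38, JNK and ERK, and Dusp2, also called PAC-1, being known from activated lymphocytes. Dusp1 read 1.96 and 1.80 on the KO stimulated arrays and 1.55 and 1.69 on the WT stimulated arrays, against 2.36 and 2.09 in KO medium and 1.98 and 2.19 in WT medium. All 4 stimulated arrays lay below all 4 medium arrays, the opposite order to the 7 genes above, which 16% of all genes showed. The difference was -0.34 ± 0.15 in KO cells (95% interval -0.71 to 0.02, adjusted p = 0.220) and -0.47 ± 0.15 in WT cells (-0.83 to -0.10, adjusted p = 0.104), and neither was called. Without the second KO arrays the KO difference was -0.40. Dusp2 read 6.34 and 6.42 on the KO stimulated arrays and 6.40 and 6.52 on the WT stimulated arrays, against 6.30 and 6.12 in KO medium and 6.51 and 6.42 in WT medium. Its 8 arrays spanned 0.40, and it was the gene with the flattest WT values, with a difference of 0.17 (-0.12 to 0.46) in KO cells and -0.005 (-0.30 to 0.29) in WT cells. Without the second KO arrays its KO difference was 0.03.

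**Figure D2:**
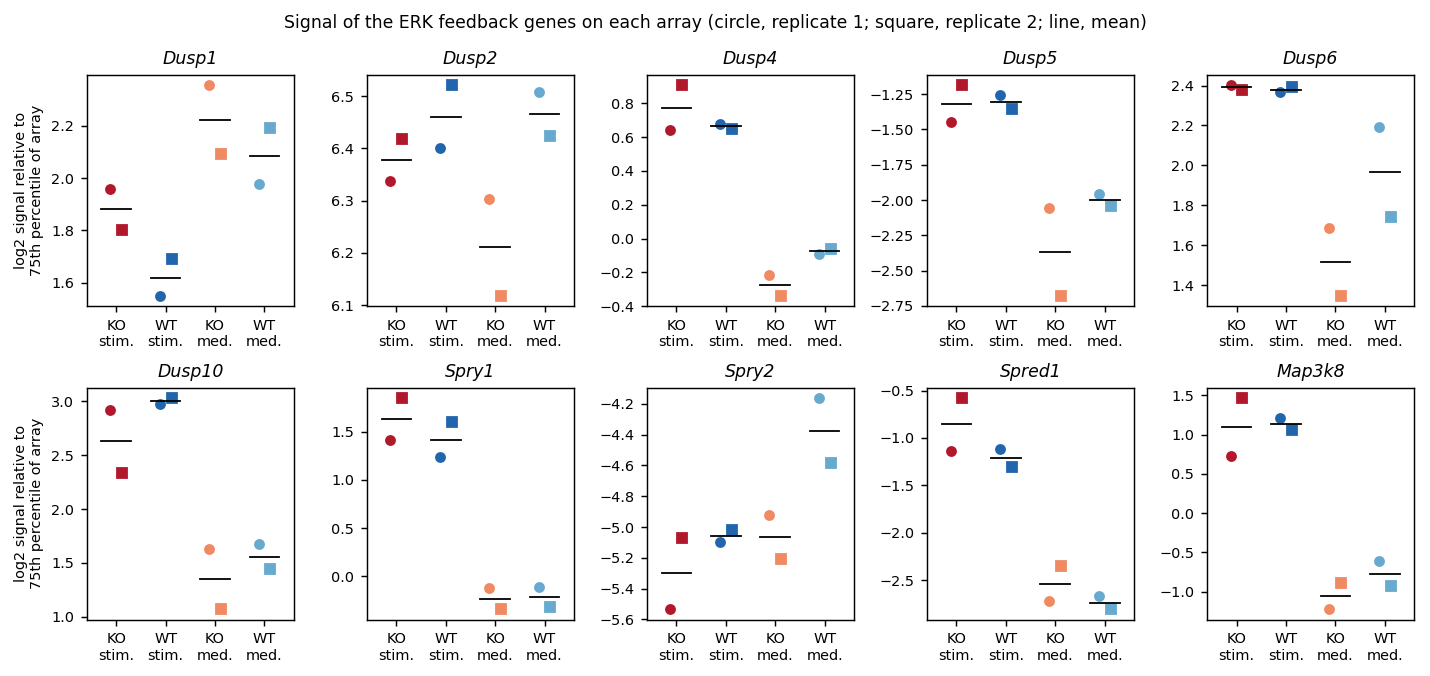
Log2 signal relative to the 75th percentile of the array (vertical axis, a separate scale for each gene) for the 10 ERK feedback genes on the KO stimulated, WT stimulated, KO medium and WT medium arrays; circles are replicate 1, squares replicate 2, lines the mean of 2 arrays. For 7 genes all stimulated arrays lie above all medium arrays, Dusp1 runs the other way, and the Dusp6 stimulated arrays coincide while its medium arrays spread.

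All 4 stimulated arrays exceeded all 4 medium arrays for 7 members, Dusp4, Dusp5, Dusp6, Dusp10, Spry1, Spred1 and Map3k8, which 15.6% of all genes did. The order of the group means placed both stimulated groups first for these 7 genes. Within that pair the arrays of KO and WT cells overlapped for each but Dusp10, whose WT arrays were both higher. The 2 medium groups overlapped for Dusp10, Spry1, Spred1 and Map3k8, and for Dusp4, Dusp5 and Dusp6 the KO medium group was lowest without overlap.

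The calls depended on the arrays used, over all genes as well as for the members. When the KO arrays were fitted alone, 38 of all genes were called in KO cells, against 1230 in the main fit. Calls over all genes in KO cells also fell with any 1 array left out, except KO stimulated replicate 1. In WT cells they fell without either WT medium array and without WT stimulated replicate 1. The lower member counts are thus not particular to these genes. The KO count was 3 members without the second KO arrays, Dusp10, Spred1 and Map3k8, with a WT count of 6. It was 3 to 5 with any 1 array left out and 0 when the KO arrays were fitted alone. Leaving out any 1 WT array ended nearly all WT calls, with 0 members called without WT medium replicate 1, WT medium replicate 2 or WT stimulated replicate 2, and 1, Spry1, without WT stimulated replicate 1, although no member called in WT cells changed direction.

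**Figure D3:**
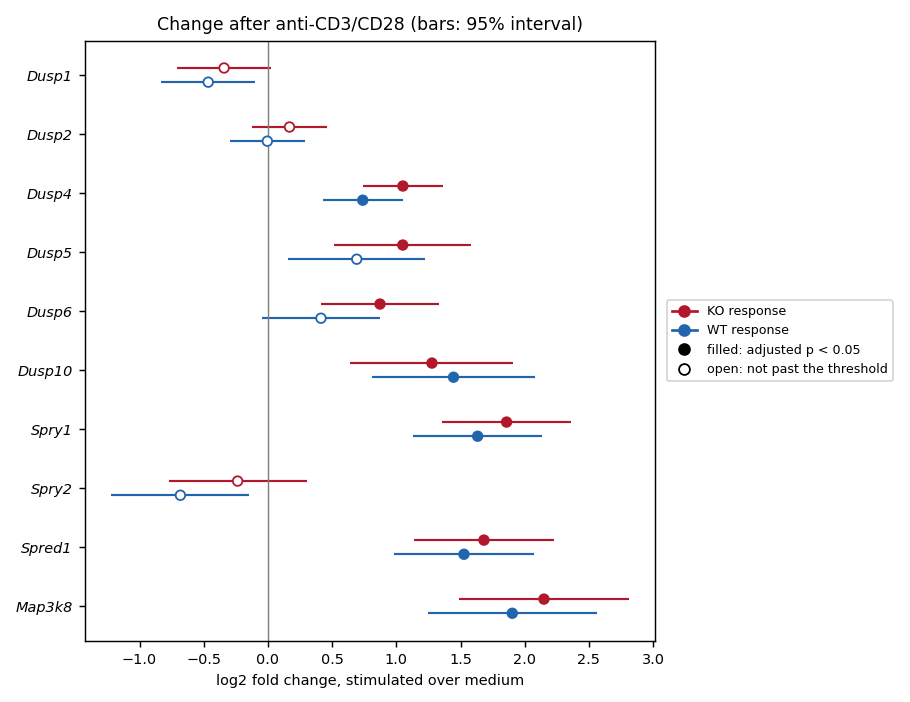
Log2 fold change of stimulated over medium cells (horizontal axis) for the 10 genes in KO cells (red, upper of each pair) and WT cells (blue); bars are 95% intervals from the limma fit of 8 arrays, filled points have an adjusted p below 0.05. KO values run from -0.34 (Dusp1) to 2.15 (Map3k8) and WT values from -0.68 (Spry2) to 1.90 (Map3k8), with overlapping intervals at every gene.

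The sequence just upstream of the genes was looked at because 7 of the genes rose together in KO cells while Dusp1, Dusp2 and Spry2 did not. A window from 250 bases before to 50 bases after the start, by RefSeq (GRCm38.p6), was used for 8 of the 10 genes. No window was used for Dusp4 and Map3k8. Both strands were searched for TGACG (the core of the cyclic AMP response element), TGANTCA (AP-1), CCGGAA (ETS), GCGNGGGCG (Egr), GGAAAA (NFAT), the CArG box bound by serum response factor and the kappaB site. Of 32851 such windows, 20.8% held TGACG, 7.81% AP-1, 14.9% ETS, 5.55% Egr, 23.4% NFAT, 1.63% a CArG box and 4.51% a kappaB match. The windows of Dusp1, Dusp5 and Spry1 are shown, as 1 gene whose values were lower after stimulation and 2 that rose in KO cells, 5′ to 3′ on the strand of the gene, with every match in capitals. They lie at chr17:26508423-26508722 on the minus strand, chr19:53528895-53529194 on the plus strand and chr3:37639697-37639996 on the plus strand.
Dusp1: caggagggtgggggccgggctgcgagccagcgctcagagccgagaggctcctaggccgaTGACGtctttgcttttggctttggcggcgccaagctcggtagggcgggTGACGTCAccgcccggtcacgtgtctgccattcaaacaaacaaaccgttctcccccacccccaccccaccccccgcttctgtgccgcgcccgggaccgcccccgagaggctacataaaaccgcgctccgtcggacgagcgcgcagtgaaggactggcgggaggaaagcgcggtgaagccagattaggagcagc
Dusp5: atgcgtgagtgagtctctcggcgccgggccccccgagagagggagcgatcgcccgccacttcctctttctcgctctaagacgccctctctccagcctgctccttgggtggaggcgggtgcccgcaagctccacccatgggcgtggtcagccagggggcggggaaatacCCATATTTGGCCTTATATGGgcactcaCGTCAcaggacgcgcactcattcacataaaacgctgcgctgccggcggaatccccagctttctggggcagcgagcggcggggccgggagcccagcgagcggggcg
Spry1: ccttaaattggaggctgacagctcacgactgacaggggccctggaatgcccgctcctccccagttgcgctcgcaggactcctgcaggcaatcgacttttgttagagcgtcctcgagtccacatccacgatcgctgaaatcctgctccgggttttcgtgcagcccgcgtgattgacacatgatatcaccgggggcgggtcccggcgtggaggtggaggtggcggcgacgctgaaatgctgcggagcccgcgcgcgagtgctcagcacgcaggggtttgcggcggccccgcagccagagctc

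Dusp1 held 3 matches to TGACG, of which those starting at -143 and -140 from the gene's start lie on opposite strands and overlap. Dusp5 held 2 CArG boxes side by side, at -82 to -73 and -72 to -63, and a TGACG match at -55. Spry1 held none of the 7 motifs, and neither did Dusp6, Dusp10 or Spred1. Dusp2 held an Egr match at -98 and a TGACG match at 5, and Spry2 an ETS match at 33 and NFAT matches at -96 and -16. No AP-1 or kappaB match was found in any of the 8 windows. The GC content was 57.3% to 72.3%, beside a median of 52.7% over all windows. A match is a run of letters in this window and not a measured site.

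The genotype comparison asks whether loss of Lsp1 changed these genes. No member was called after stimulation, where 0.0198% of all genes were called, in medium, where 0.00661% were, or in the difference between the KO and the WT response, where 0.00661% were. At an unadjusted p below 0.05 there were 0 members after stimulation, 1 in medium (Spry2) and 0 for the difference of responses, beside 5.03%, 5.71% and 3.03% of all genes. Markers of other cells differed between the genotypes in both conditions without being called: 11 of 13 neutrophil markers tested had a higher mean in KO cells, with a median difference of 1.78 after stimulation and 1.87 in medium. Without the second KO arrays those medians were -0.56 and -0.42. All 10 B cell markers were lower in KO cells, with medians of -0.58 after stimulation and -0.50 in medium, and of -0.68 and -0.39 without the second KO arrays. Natural killer cell markers were lower for 8 of 9, with medians of -0.37 and -0.55, and of -0.32 and -0.53 without those arrays. Their part in the values below was not tested.

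After stimulation the median KO minus WT difference of the 10 genes was 0.00 beside -0.04 over all genes, with 5 of the 10 positive beside 40.9% of all genes. The values ran from -0.37 for Dusp10 (95% interval -1.01 to 0.26) to 0.35 for Spred1 (-0.19 to 0.90). Without the second KO arrays the Dusp10 and Spred1 differences were -0.08 and 0.08. The median of the 10 was then -0.05, with 3 of the 10 positive. Both KO stimulated arrays lay above both WT arrays for Dusp1, where 13.2% of all genes did so, and below them for Dusp10, where 24.8% did. Dusp1 was 0.26 higher (-0.10 to 0.63) and Dusp10 0.37 lower. For Map3k8 the difference was -0.04, with an interval of -0.70 to 0.62, and it was -0.41 without the second KO arrays.

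In medium 8 of the 10 differences were below 0 beside 60.3% of all genes, with a median of -0.23 beside -0.06 over all genes. Both KO arrays lay below both WT arrays for 5 genes, Dusp2, Dusp4, Dusp5, Dusp6 and Spry2, which 21.4% of all genes did. None of the 10 had both KO arrays above, which 12.8% of all genes did. The values nearest to the threshold were those of Spry2, -0.69 (95% interval -1.23 to -0.15, unadjusted p = 0.0199, adjusted p = 0.736), and Dusp6, -0.45 (-0.91 to 0.01, unadjusted p = 0.0543, adjusted p = 0.736). They were -0.55 and -0.28 without the second KO arrays, where Dusp5 was at -0.06 (-0.37 with all arrays), Dusp10 at 0.07 and Spry1 at 0.09. The KO medium array that stands apart by its neutrophil markers was the lower of its pair for 8 of the 10 genes, all but Spred1 and Map3k8. The second WT medium array, which did not stand apart, was likewise the lower for all but Dusp1 and Dusp4. After stimulation the second KO array was the lower for Dusp1, Dusp6 and Dusp10 only. The share over all genes was not counted.

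The KO minus WT difference of responses was above 0 in 9 of 10 genes, all but Dusp10, where 54.7% of all genes did so. For 2 of the 9 this was a smaller fall in KO cells, not a larger rise. Dusp1 was at -0.34 in KO and -0.47 in WT cells, and the dim Spry2 at -0.24 and -0.68. The median difference of responses was 0.24 beside 0.02 over all genes. None was called: the largest of the 10, for Dusp6, was 0.46 (95% interval -0.19 to 1.11), that for Spry2 was 0.45 (-0.32 to 1.21) and that for Dusp5 was 0.36 (-0.40 to 1.11). Without the second KO arrays 7 of 10 were positive, beside 46.8% of all genes, the median was 0.05 beside -0.01, and Dusp5 (-0.08) and Spry1 (-0.10) were below 0.

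**Figure D4:**
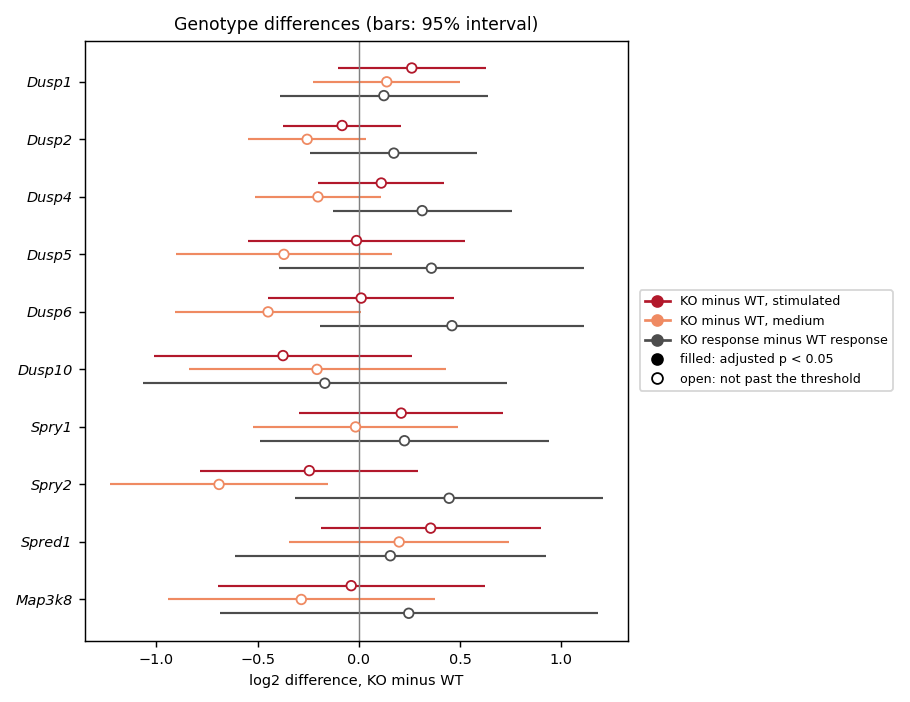
Log2 differences (horizontal axis) for the 10 genes: KO minus WT after stimulation and in medium, and the KO response minus the WT response; bars are 95% intervals and every point is open, since no adjusted p was below 0.05. Spry2 in medium, at -0.69, is the only value whose interval does not reach 0.

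Of 12 immediate early genes known to respond to ERK, 8 were called higher in KO cells and the same number in WT cells. Of all genes, 5.85% were called higher in KO cells and 6.42% in WT cells. The medians of the list were 1.31 in KO cells and 1.14 in WT cells. The strongest in KO cells were Egr1 (3.87), Myc (3.74), Egr2 (3.42) and Egr3 (2.39), and in WT cells Myc (3.79), Egr1 (3.17), Egr2 (2.69) and Fosl1 (2.38), all log2 fold changes of transcription factor genes. The difference of responses was positive for 10 of the 12, beside 54.7% of all genes, with a median of 0.28, and none was called. KO minus WT was positive for 9 of the 12 after stimulation and 3 in medium, beside 40.9% and 39.7% of all genes. Without the second KO arrays it was positive for 2 of the 12 in each condition. The medians were then -0.13 after stimulation and -0.10 in medium. The cascade itself, 19 genes from Ras and its regulators to Raf, MEK and ERK, gave 0 calls in either genotype, with a median of -0.11 in KO cells and -0.01 in WT cells. At an unadjusted p below 0.05 it held 3 of its 19 genes in KO cells and 4 in WT cells, beside 25.4% and 29.5% of all genes. These genes are named here after their values were seen, and 1 of them was higher: Rasgrp1, which loads Ras with GTP in T cells, differed by 1.12 in KO cells (adjusted p = 0.0700) and 1.11 in WT cells (adjusted p = 0.0613). The others were lower. Mapk3, which encodes ERK1, differed by -0.59 in KO cells (adjusted p = 0.0629) and -0.41 in WT cells (adjusted p = 0.119). Rasa3, a Ras inactivator, differed by -0.82 in KO cells (adjusted p = 0.0845) and -0.69 in WT cells (adjusted p = 0.107), and Rasa1, of the same kind, by -0.73 in WT cells (adjusted p = 0.113). Of 12 measured relatives of the phosphatases and Sprouty proteins, 0 were called in either genotype, with medians of 0.06 and -0.06 and a range of -0.55 to 0.58 over both, with an unadjusted p below 0.05 for 2 in KO cells and 1 in WT cells, beside the same 25.4% and 29.5% of all genes. Spry3, Spry4 and Spred3, also listed, did not pass the filter or were not named.

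Map3k8 is held in a complex with p105, the product of Nfkb1, and with Tnip2 (ABIN2). Both partners rose in both genotypes: Nfkb1 by 1.12 in KO cells (adjusted p = 0.0128) and 1.18 in WT cells (adjusted p = 0.0118), Tnip2 by 0.60 in KO cells (adjusted p = 0.0237) and 0.52 in WT cells (adjusted p = 0.0355). Tnip1, which binds ubiquitin chains and restrains NF-kappaB, fell by 0.78 in WT cells (adjusted p = 0.0294), and its KO value of -0.64 was not called (adjusted p = 0.0554). The 3 subunit genes of the IKK complex, Chuk, Ikbkb and Ikbkg, were not called. Thus 2 of the 6 genes of this list were called higher in each genotype, with 1 lower in WT cells. Of all genes, 5.85% were called higher in KO cells and 6.42% in WT cells, and 3.84% lower in WT cells. Among 11 kinases of the JNK and p38 pathways, which Dusp10 and Dusp1 restrain, 1 was called, beside the same 5.85% and 6.42% of all genes called higher. Map2k3, an activator of p38, rose by 0.85 in KO cells (adjusted p = 0.0331) and 0.80 in WT cells (adjusted p = 0.0367). No gene of any of these 5 lists was called in a comparison of the genotypes.

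**Figure D5:**
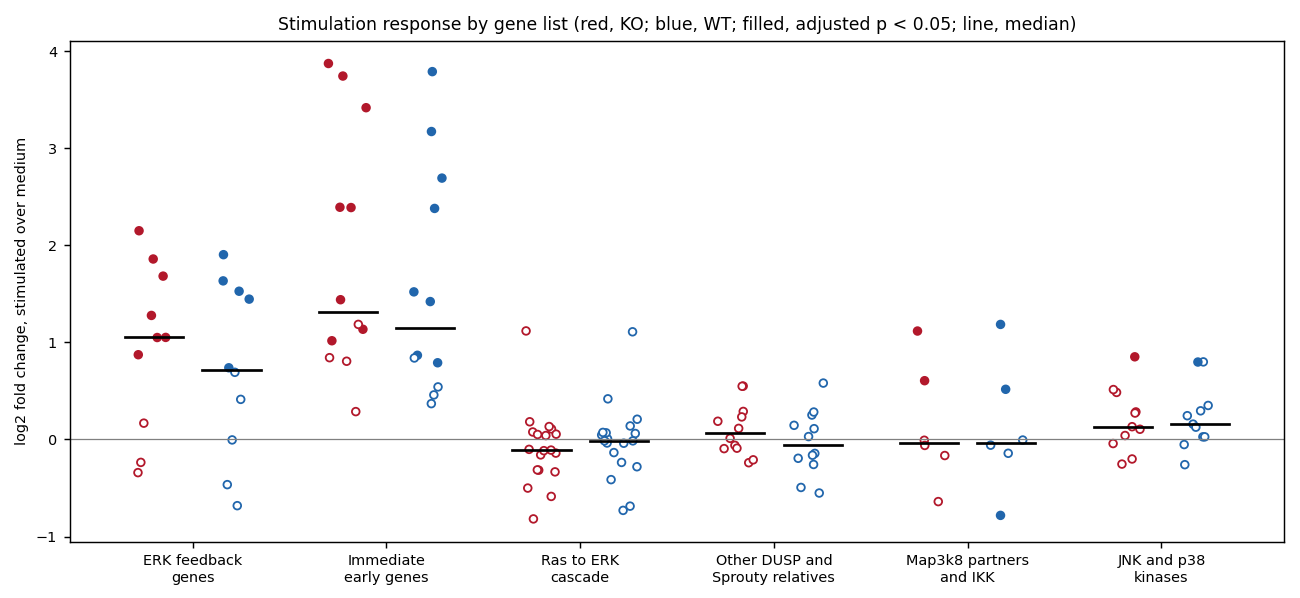
Log2 fold change of stimulated over medium cells (vertical axis) for the genes of 6 lists in KO cells (red, left of each pair) and WT cells (blue); filled points have an adjusted p below 0.05, and lines are medians. The ERK feedback genes (medians 1.05 and 0.71) and the immediate early genes (1.31 and 1.14) have most filled points, and the cascade and the relatives of the phosphatases have none.

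By Pearson correlation over the 8 arrays with the 15113 other genes measured on each, the gene nearest to Map3k8 was Rpf2 (r = 0.997), that nearest to Dusp4 Sbno2 (0.997), that nearest to Spry1 Il12rb1 (0.996), that nearest to Dusp10 Gm8909 (0.995) and that nearest to Dusp5 Slc39a6 (0.994). The nearest to Dusp6 was 2900005J15Rik (0.988), to Dusp1 Ppt2 (0.983), to Spry2 2310009B15Rik (0.980) and to Dusp2 Sumo2 (0.978). With 8 arrays that fall into 2 conditions and share the scaling of each array, these values are a description of likeness. Among the members, Map3k8 and Dusp4 had r = 0.977 and Dusp4 and Spry1 0.979, while Dusp1 was negative with each of the 7 called genes, at -0.74 to -0.89.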

How the data were processed

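Per the file headers, the authors used Agilent Feature Extraction 10.7.1.1. They deposited its output for each array, with a linear intensity for each spot, and a value table identical to the scanner's median signal. Processed signal is that intensity after the program's background subtraction. The 8 arrays share a slide, so slide could not be tested as a batch, and position on it and group cannot be told apart.

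From these intensities, log2 of the processed signal minus the 75th percentile of the array's non-control spots was computed, without control and outlier spots, averaging spots of a probe. The percentile was first taken over probes counted once, and was set over spots after the counts of calls had been seen, to follow earlier processing of these data; the once-counted version is among the alternatives. A probe was kept if, in 1 group or more, both arrays had it well above background (37255 of 55681). Probes were named through RefSeq (26056 probes), and a gene took the value of its brightest probe on average, each member having 1 probe. A mean per group was fitted over all arrays using R 4.3.3 and its packages limma (3.58.1), data.table (1.17.8) and statmod (1.5.0), leaving 4 residual degrees of freedom plus 2.11 prior ones. Tests were two-sided, adjusted by Benjamini-Hochberg over 15138 genes, with calls at an adjusted p below 0.05. The procedure was tested on simulated data. The number of arrays limits the precision, and no sample was dropped or imputed.

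The members and the gene lists were chosen with earlier results of these data known. Named were the members, Lsp1, from each other list up to 4 called genes with the largest change per direction and contrast, and for each member the gene with the highest correlation (that of Spred1 is not reported here). There were 21 alternatives to the processing: other scaling, background, filters, probe choice, value source and replicate blocks, and arrays left out. The scanner files used hold no mean signal, so the normexp alternative (offset 50) used the median signal.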

Additional observations from a re-analysis of the deposited data

How the results depend on the processing

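No member reversed a called direction under any of the 21 alternatives, and 0 members were called in a comparison of genotypes under any of those that applied. The 7 members called in KO cells became 4 with no filter on dim probes, 0 when only the KO arrays were fitted, 3 without both second KO arrays and 3 to 5 when 1 array was left out. The 5 called in WT cells became 0 to 6 with 1 array left out, a lone array being assumed to vary like the other groups. All other alternatives gave 5 to 7 in KO cells and 5 or 6 in WT cells. Calls over all genes in KO cells likewise fell when only the KO arrays were fitted, to 38 from 1230. The sign changed with neither value called in 3 of 210 member values for WT stimulation, 9 of 210 for genotype in medium, 14 of 210 after stimulation and 8 of 200 for the difference of responses. The labels do not say that equal replicate numbers pair samples, and deviations of first replicates from their group means correlated at 0.74 between the KO groups, 0.16 between the WT groups and -0.24 between the stimulated groups. With the replicate block within genotype 7 members were called in KO cells and 6 in WT cells, adding Dusp1, and with the block over all groups 6 and 5. Over all genes the block within genotype called 2776 genes in KO cells and 3522 in WT cells, against 1230 and 1553 without it, and 197 and 179 between genotypes after stimulation and in medium, against 3 and 1. Over all alternatives the calls ran from 38 to 2776 in KO cells, 199 to 3522 in WT cells, 0 to 197 after stimulation, 0 to 179 in medium and 0 to 3 for the difference of responses. With numbers crossed between genotypes, an alternative chosen after seeing the data, 1394 genes were called in KO cells and 1693 in WT cells. With the percentile over probes counted once, also chosen after seeing the data, 7 and 5 members and 1300 and 1617 genes were called. The cause of these differences was not tested. The small number of arrays limits every interval here, and Spry2, at 30.5 to 74.7 units of signal, lies near the limit for well above background.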
